A study of Mus musculus with 8 samples.

Results

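Cd79a, Iglc2, Ccr7 and Nkg7 are best known as genes of lymphocytes, yet they stood in the authors' deposited table of changed genes from sorted myeloid cells. They are 4 of the 482 genes named in that table and were chosen by symbol. The table lists 498 of the 23332 probesets measured, with a difference of at least 2-fold between the sorted fractions as one condition. The difference between the fractions therefore chose all 4 genes. It is given below as a description and was not tested.

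The cells were CD11b+Gr1+ splenocytes. In mice these surface proteins together are used to mark myeloid-derived suppressor cells, though they do not show that the cells suppress. The cells came from L2-Cre;p120f/f mice 12 months old, with esophageal tumors and a mixed C57BL/6x129 background. In this line the L2 promoter drives Cre in squamous epithelium such as that of the esophagus, where it removes floxed p120, a catenin of cell junctions. The cells of each spleen preparation were sorted by their CD38 level (CD38high or CD38low), and there were 8 single-channel Affymetrix arrays, 4 per fraction: 3 individual mice (mouse 1, mouse 2, mouse 3) and 1 pool of splenocytes from 3 mice. Both fractions thus share genotype, age and tumor, and no mice without tumors or without Cre are among the samples. Whether mice 1 to 3 also gave cells to the pool is not stated. Fractions from the same animal, or from the pool, are called a pair.

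Cd38 followed the sort. It stood at 12.45 ± 0.15 in CD38high and 10.46 ± 0.57 in CD38low cells (log2, SD, n = 4 each) and was higher in 4 of 4 pairs, which checks the labels only. The sort antigens Itgam (CD11b) and Ly6g have no named probeset here, so the myeloid label was not checked by them. Array medians lay between 6.92 and 7.10, and the median difference over all probesets was 0.04 on the log2 scale.

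The 4 genes have different roles. Cd79a (chromosome 7) encodes Ig-alpha, a chain that pairs with CD79B and carries the signal of the B cell receptor into the cell. Iglc2, listed in the files as Igl-C2 (chromosome 16), encodes a constant region of the immunoglobulin lambda light chain, part of the antigen-binding portion of the same receptor. Ccr7 (chromosome 11) encodes the receptor for the chemokines CCL19 and CCL21, which guides T cells, B cells and mature dendritic cells within lymphoid organs. Nkg7 (chromosome 7) encodes a membrane protein of cytotoxic granules and is widely used as a marker of natural killer cells and cytotoxic T cells. In bulk samples such as these, more cells of a type and more RNA per cell cannot be told apart.

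RefSeq promoter windows (GRCm38.p6, 250 bases before to 50 after the gene start) were at hand for Cd79a and Nkg7, which differed in opposite directions, and both are shown for that contrast. Both lie on the plus strand of chromosome 7. The window of Cd79a is chr7:24897247-24897546 and that of Nkg7 is chr7:43436888-43437187. Capitals mark every match, on either strand, to 6 motifs. The letters searched were CAAGGGA for a partial site of the B lineage factor EBF1, GGAAGT for the Ets factors, TGTGG for the Runx factors, CANNTG for the E-box of basic helix-loop-helix proteins, AGGTGTG for the T-box factors and TATAAA for the motif of the TATA-binding protein.
Cd79a: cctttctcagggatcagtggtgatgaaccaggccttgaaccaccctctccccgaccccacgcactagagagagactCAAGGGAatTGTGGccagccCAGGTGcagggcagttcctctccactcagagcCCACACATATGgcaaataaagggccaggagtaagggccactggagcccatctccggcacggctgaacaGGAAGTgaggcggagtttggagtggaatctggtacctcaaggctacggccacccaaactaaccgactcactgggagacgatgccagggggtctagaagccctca
Nkg7: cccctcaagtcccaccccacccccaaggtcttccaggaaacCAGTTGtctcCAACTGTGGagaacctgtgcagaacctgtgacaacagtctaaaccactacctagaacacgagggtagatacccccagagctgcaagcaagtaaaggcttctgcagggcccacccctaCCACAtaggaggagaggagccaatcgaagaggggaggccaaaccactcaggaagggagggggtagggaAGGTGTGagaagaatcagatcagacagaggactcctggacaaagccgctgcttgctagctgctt
The Cd79a window holds 1 match to the EBF1 motif and 1 to the Ets motif, which occur in 5.06% and 23.8% of the 32851 promoter windows of this length. The Nkg7 window holds neither of these and has 1 match to the T-box motif, found in 5.84% of windows. Each window has 2 matches to the Runx motif (in 55.9% of windows) and 2 to the E-box (72.3%), and in Nkg7 a Runx and an E-box match overlap. Neither holds the TATA motif (13.6%). A match describes the letters and shows no binding.

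Cd79a was the most variable of the higher genes. In CD38high cells its log2 value was 9.75 in mouse 1, 7.99 in mouse 2, 9.32 in mouse 3 and 8.91 in the pool. In CD38low cells it was 6.79, 6.45, 7.33 and 6.76 in the same order. The fractions did not overlap, and the lowest CD38high array (mouse 2) stood 0.66 above the highest CD38low array (mouse 3). The means were 8.99 ± 0.75 and 6.83 ± 0.37 (SD, n = 4 each), a log2 difference of 2.16 or 4.46-fold. Within pairs the difference ran from 1.54 in mouse 2 (2.90-fold) to 2.95 in mouse 1 (7.75-fold).

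Iglc2 had nearly the same mean difference with a far smaller spread. It stood at 8.83 in mouse 1, 8.47 in mouse 2, 8.63 in mouse 3 and 8.80 in the pool in CD38high cells. The CD38low arrays read 6.57, 6.50, 6.36 and 6.53 in that order. A gap of 1.91 separated the fractions, several times the range within either (0.36 and 0.20). The means were 8.69 ± 0.17 and 6.49 ± 0.09 (SD, n = 4 each), a log2 difference of 2.19 or 4.58-fold. The pair difference was 2.27 in mouse 1, mouse 3 and the pool, and 1.97 in mouse 2. Lambda constant regions are a family of genes, some of them near-identical, and the probes may not separate Iglc2 from its neighbours.

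Ccr7 had the smallest difference of the 4. Its CD38high values were 7.99 in mouse 1, 7.58 in mouse 2, 8.08 in mouse 3 and 7.86 in the pool. Its CD38low values were 6.31, 6.30, 6.95 and 6.50. The fractions were 0.62 apart at their nearest arrays, mouse 2 in CD38high and mouse 3 in CD38low cells. The means were 7.88 ± 0.22 and 6.51 ± 0.31 (SD, n = 4 each), a log2 difference of 1.36 or 2.57-fold. Within pairs it ran from 1.13 in mouse 3 to 1.69 in mouse 1. The CD38low means of Ccr7, Iglc2 (6.49) and Cd79a (6.83) all lay below the lowest array median (6.92). How far background shaped the folds and the CD38low spread of these genes was not tested.

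Nkg7 ran the other way. In CD38high cells it stood at 8.86 in mouse 1, 10.29 in mouse 2, 9.21 in mouse 3 and 9.67 in the pool. In CD38low cells it stood at 11.62, 12.50, 11.61 and 11.93. Every CD38high array was below every CD38low array, with a gap of 1.32 between the CD38high array of mouse 2 and the CD38low array of mouse 3. The means were 9.51 ± 0.62 and 11.92 ± 0.42 (SD, n = 4 each), a log2 difference of -2.41, or 5.31-fold lower. Within pairs it was lowest in size in mouse 2 (-2.21) and largest in mouse 1 (-2.77). By size, Nkg7 had rank 3 among the 374 lower probesets of the table, while Iglc2, Cd79a and Ccr7 had ranks 9, 11 and 51 among the 124 higher ones.

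**Figure D1:**
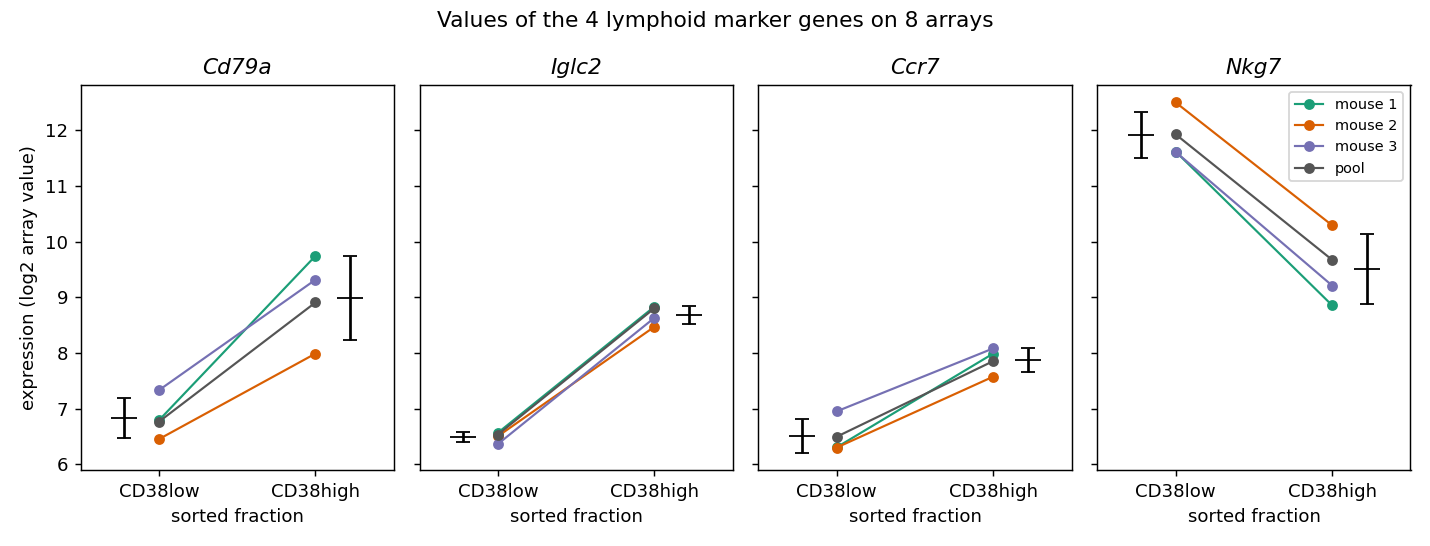
Log2 array value (vertical axis) of each gene in the CD38low and CD38high fraction, with a line joining each pair; black bars are the mean ± SD of 4 arrays. Cd79a, Iglc2 and Ccr7 are higher and Nkg7 is lower in CD38high cells in all 4 pairs, and heights are not comparable between genes.

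For all 4 genes the 2 fractions did not overlap, which was true of 16.4% of all probesets (6.99% with CD38high above and 9.37% with CD38high below). All 4 were also called in the limma fit at an adjusted p under 0.05, as were 10.6% of all probesets (3.74% higher and 6.88% lower), and with mouse or pool as a replicate block, as were 16.8%. Without mouse 1 or the pool, 3 of the 4 were called without the block, and Cd79a was not. Since that contrast chose the genes, nothing is read from these counts.

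Each mouse contributed both fractions, so the mean difference between fractions does not enter the differences between mice. By the methods, the authors' selection also used a p threshold of an unpaired test, whose error holds the spread between mice. That test as run here gave 351 probesets against the 498 listed and left out Cd79a, so the selection was not reproduced. The differences between mice are thus not free of the selection and support nothing on their own. The mean over both fractions was lowest in mouse 2 for Cd79a (7.22, against 8.27 in mouse 1, 8.32 in mouse 3 and 7.84 in the pool). For Nkg7 the same mouse was highest (11.40, against 10.24, 10.41 and 10.80). Mouse 2 was also lowest for Ccr7 (6.94), where mouse 3 was highest (7.52). For Iglc2 the 4 means lay within 0.21 of each other. In the limma F test of mouse or pool, adjusted over all probesets, Nkg7 did not pass (F = 19.4, adjusted p = 0.0516), nor did Cd79a (adjusted p = 0.209), Ccr7 (adjusted p = 0.242) or Iglc2 (adjusted p = 0.621), while 3.14% of all probesets did. At an unadjusted p under 0.05 there were 2 of the 4 genes, Nkg7 and Cd79a, and 5014 of the 23332 probesets. Nkg7 lay near the threshold and passed when mouse 1 was left out (limma adjusted p = 0.0453), when only the brighter probesets were tested (limma adjusted p = 0.024) and with trended robust variances (limma adjusted p = 0.0401). It did not pass with quantile normalization (limma adjusted p = 0.0536), with median centring (limma adjusted p = 0.0743) or without the pool (limma adjusted p = 0.0577). Without mouse 2 or mouse 3 no probeset passed, and the limma adjusted p of Nkg7 was 0.353 and 0.112.

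Of the sum of squares over the 8 arrays, the fraction took 98.9% for Iglc2, 89.7% for Ccr7, 87.3% for Nkg7 and 81.7% for Cd79a. The mouse or pool took 94.3% of what was left within fractions for Nkg7, 80.7% for Ccr7, 74.8% for Cd79a and 68.5% for Iglc2. The median over all probesets was 63.8%, and 6.37% of probesets had a larger share than Nkg7. The SD of Cd79a in CD38high cells was above that of 96.5% of probesets, and that of Iglc2 in CD38low cells was above that of 15.1%.

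**Figure D2:**
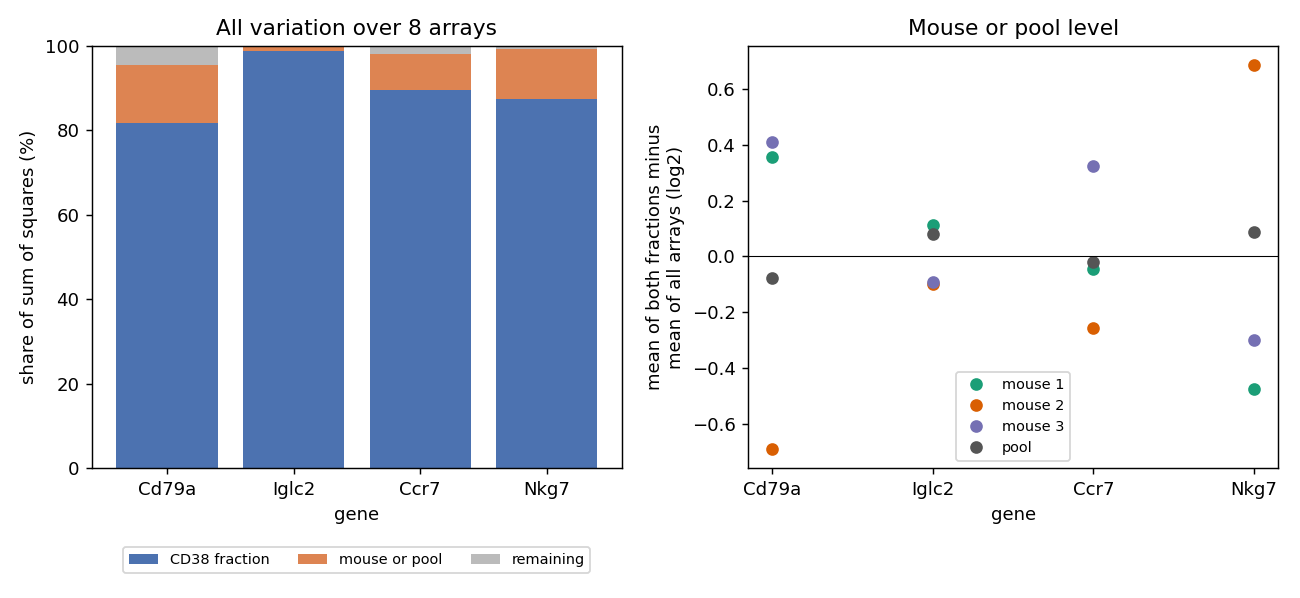
Left, share of the sum of squares over 8 arrays (%) that lies between CD38 fractions, between mice or pool, and in the remainder, for each gene; right, mean of both fractions of each mouse or pool minus the mean of all arrays (log2). Mouse 2 is lowest for Cd79a and Ccr7 and highest for Nkg7, and the 4 points of Iglc2 lie close together.

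How the genes vary together was described after subtracting the mean of each fraction, which removes the mean difference between fractions but not the part that the spread within fractions had in the authors' p threshold. These correlations run over 8 arrays that form 4 pairs, so the points are not independent, and no p is given. Cd79a and Nkg7 ran opposite to each other (Pearson r = -0.94). In CD38high cells the deviation of mouse 2 was -1.001 for Cd79a and 0.79 for Nkg7, while that of mouse 1 was 0.76 and -0.65. Of the 483 other named probesets, Nkg7 had the lowest r with Cd79a, and Cd79a the lowest with Nkg7. Over all probesets, 0.262% had a lower r with Cd79a and 0.201% a lower one with Nkg7. The value ranged from -0.97 to -0.86 when a mouse or the pool was left out.

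Cd79a and Ccr7 varied in the same direction (r = 0.81, from 0.69 to 0.94 without a mouse or the pool), and 2 of the 483 named probesets and 1.92% of all probesets had a higher r with Cd79a. Ccr7 and Nkg7 had an r of -0.67, which shrank to -0.29 without mouse 2. The pair of B cell receptor genes, Cd79a and Iglc2, had an r of 0.47, and 63 named probesets and 17.2% of all had a higher one with Cd79a. That value depended on single mice: it was -0.34 without mouse 2, 0.26 without mouse 1 and 0.91 without mouse 3. It was 0.74 once each array was centred on its median. For Iglc2 and Ccr7 r was -0.03, but -0.83 without mouse 2 and 0.85 without mouse 3. For Iglc2 and Nkg7 it was -0.48, which became 0.07 without mouse 2 and -0.80 without mouse 3.

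The array medians moved with 3 of the genes. Mouse 2 had the highest medians (7.10 in CD38high and 7.07 in CD38low cells) and mouse 3 the lowest (6.92 and 6.94). Their deviations had an r of -0.81 with Cd79a, -0.83 with Ccr7, 0.82 with Nkg7 and -0.12 with Iglc2. With each array centred on its median, r was -0.93 for Cd79a with Nkg7, 0.85 for Cd79a with Ccr7 and -0.68 for Ccr7 with Nkg7, while Iglc2 moved to -0.77 with Nkg7 and 0.37 with Ccr7. The part of the array medians in the shared variation was not tested.

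**Figure D3:**
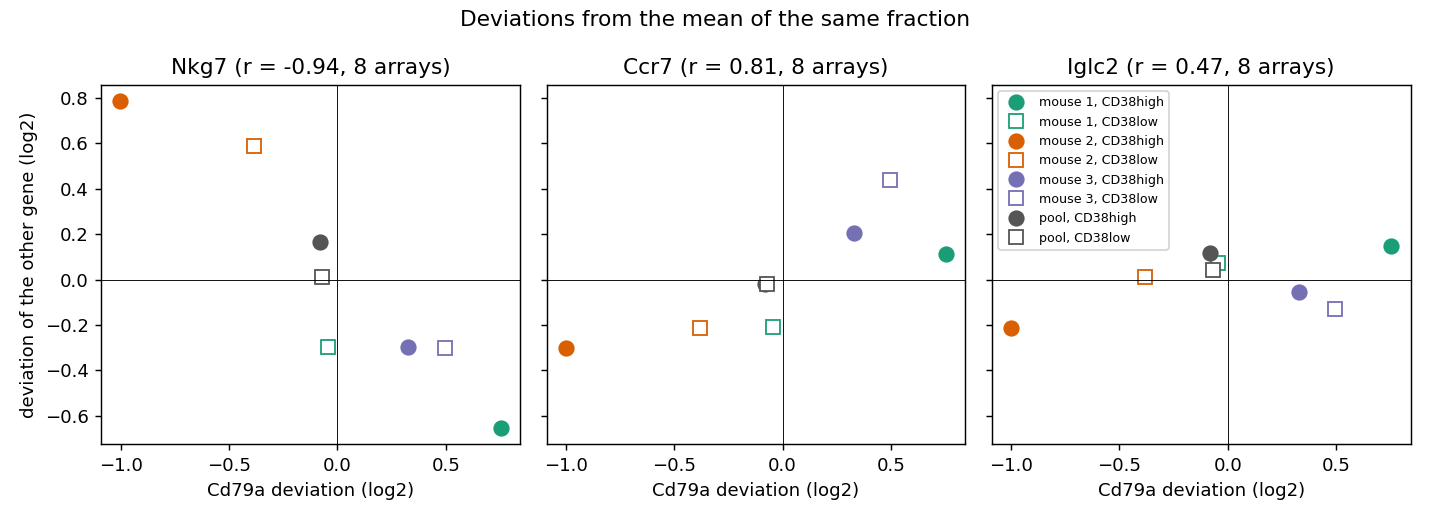
Deviation of each array from the mean of its fraction (log2), with Cd79a on the horizontal axis and Nkg7, Ccr7 or Iglc2 on the vertical axis; filled circles are CD38high, open squares CD38low, colours the mouse or pool. Nkg7 falls (r = -0.94) and Ccr7 rises (r = 0.81) along Cd79a, with mouse 2 at the left end, while Iglc2 stays within a narrow band (r = 0.47).

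Apart from the members, no gene of the lymphoid lists used here was named, so none could appear in what follows. With the members set aside, the 3 named genes most like each member by this measure were taken. For Cd79a they were Ppil1, a peptidyl-prolyl isomerase of the spliceosome (r = 0.90), Ggt1, which cleaves glutathione (r = 0.81), and Rpia of the pentose phosphate pathway (r = 0.81), with Ccr7 ranking just above Rpia. Leaving out a mouse or the pool lowered these to as little as 0.74, 0.30 and 0.36. For Ccr7 they were Fkbp4, a co-chaperone of HSP90 (r = 0.94), Ppil1 (r = 0.92) and Nmral1, an NADPH sensor (r = 0.89), with lowest values of 0.75, 0.89 and 0.59 without a mouse or the pool. Ppil1 was 2.32-fold lower in CD38high cells, so its likeness to Cd79a and Ccr7 within fractions went with an opposite difference between them. For Iglc2 they were Rhof, a small GTPase (r = 0.94), Gk, glycerol kinase (r = 0.93), and the exporter gene Abcc1 (r = 0.88), with lowest values of 0.93, 0.83 and 0.72. For Nkg7 they were Clspn, the replication checkpoint adaptor claspin (r = 0.98), Fam169b (r = 0.95) and Mfsd13a, a gene of a transporter family (r = 0.92), with lowest values of 0.96, 0.77 and 0.91. Clspn was 2.60-fold lower in CD38high cells, as Nkg7 was, and Fam169b was 3.44-fold higher. An r above 0.9 was found with 0.484% of all probesets for Cd79a, 0.171% for Iglc2, 0.982% for Ccr7 and 1.15% for Nkg7.

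**Figure D4:**
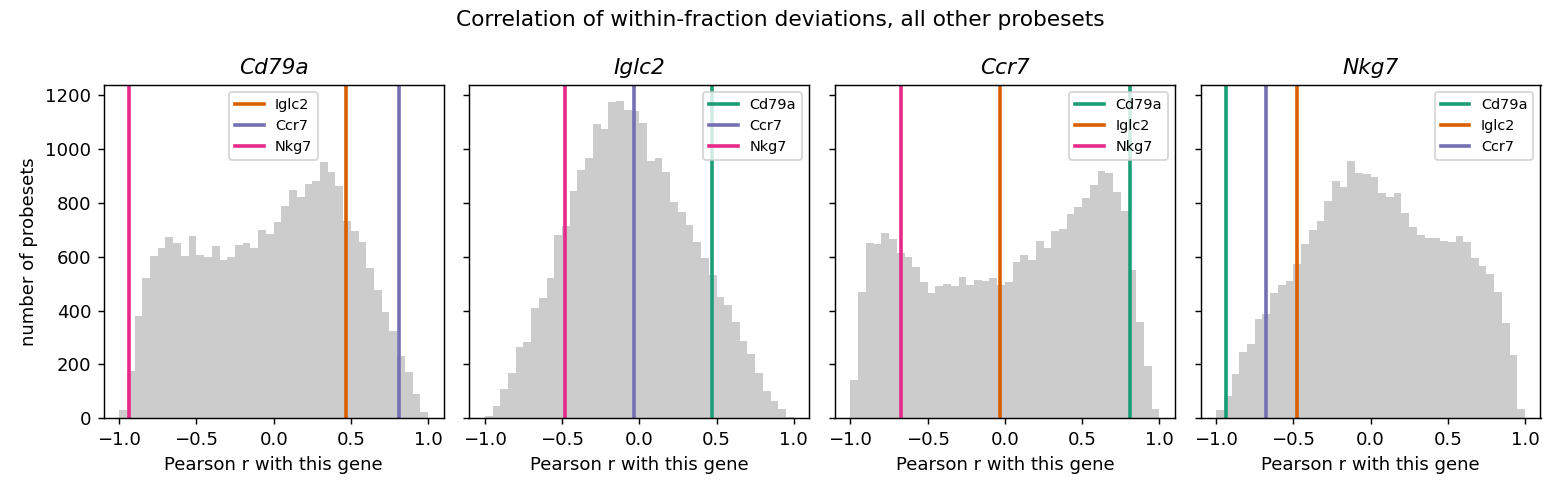
Number of probesets (vertical axis) by Pearson r of within-fraction deviations over 8 arrays with the gene named above each panel; coloured lines mark the other members. Nkg7 lies at the left edge for Cd79a and Cd79a at the left edge for Nkg7, and the other lines lie within the bulk or on a slope.

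Further lymphoid genes could hardly be followed, since names come from the authors' list alone. Of 22 B cell genes Cd79a could be named, of 15 immunoglobulin genes Iglc2, of 25 T cell genes Ccr7 and of 19 natural killer and cytotoxic genes Nkg7. Of 25 genes of B cell receptor signalling and 19 chemokine receptors, the named ones were again Cd79a and Ccr7, and none of the 10 plasma cell genes was named. Cd79b and Ms4a1 of B cells, Cd3e of T cells, and Ncr1, Gzma and Prf1 of cytotoxic cells thus have no value here, and an unnamed gene is not shown to be unchanged. The part that B cells, T cells, natural killer cells or dendritic cells within the sorted fractions had in these values was not tested. Klra17, a gene of the Ly49 receptor family that is on none of the lists used here, was picked out after its values were seen. It was 3.22-fold higher in CD38high cells (10.79 against 9.10) and is not read as a marker of natural killer cells.

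Among dendritic cell genes Ccr7 and Mgl2 were named and went in opposite directions, Mgl2, a lectin of macrophages and dendritic cells, being 6.60-fold lower in CD38high cells. Within fractions Mgl2 and Ccr7 had an r of 0.37. Genes of the neutrophil lineage have names only where the authors listed them, at a difference of at least 2-fold. That these genes differed, and by more than the median of all probesets, was thus fixed by that choice. The other genes of the neutrophil lists have no value here. The 6 named genes of 27 on the mature neutrophil list were all higher in CD38high cells (median log2 difference 1.19) and the 6 named of 12 on the primary granule list were all lower (median -2.12), against -1.15 over the listed probesets and 0.04 over all. Of the named genes in the authors' list, 120 were higher and 362 lower. Both neutrophil lists were written with earlier results of these data known, so nothing is read from these directions. The primary granule list also held Ms4a3 and Igfbp4, which encode no granule proteins. Igfbp4 encodes a secreted binding protein of insulin-like growth factors. Without Igfbp4 the median of the other 5 was -2.10. Within fractions the 6 genes had r values with Nkg7 from -0.02 for Ms4a3 to 0.87 for Elane, neutrophil elastase (median 0.60, and 0.56 without Igfbp4). With Cd79a they ran from -0.89 for Elane to 0.18 for Ms4a3 (median -0.56, and -0.46 without Igfbp4). With both Ms4a3 and Igfbp4 set aside, r ran from 0.41 to 0.87 with Nkg7 and from -0.89 to -0.41 with Cd79a. The mature neutrophil genes ran from -0.35 for Clec4e to 0.60 for Il1rn with Cd79a (median 0.06) and from -0.64 for Il1rn to 0.38 for Clec4e with Nkg7 (median 0.04). Over all probesets the median r was 0.03 with Cd79a and 0.04 with Nkg7. Arrays were not centred on their medians here, and those medians had an r of -0.81 with Cd79a and 0.82 with Nkg7. Cd38 itself had r values between -0.22 and 0.11 with the 4 genes. Whether neutrophil maturation had a part in the values of the 4 genes was not tested.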

How the data were processed

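RNA of the sorted cells was amplified, converted to cDNA, biotin-labelled and hybridised, per the labels' protocols. The authors deposited log2 expression values for 23332 probesets and a table of 498 listed probesets with symbols. Affymetrix Power Tools, RMA, PLIER and mm9 are named in the submitters' processing notes. Which of RMA and PLIER gave the values, and any filter, is not given in the sources used here. Scanner files were not used, so background and batches were not examined.

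Each listed row equalled 1 row of the value table in all 8 values (5 decimals), which names 484 probesets. Symbols follow GRCm38.p6 through 476 accessions, 3 symbols and 4 synonyms, Iglc2 among the last. Members, gene lists and tests were chosen with earlier results of these data known.

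CD38high and CD38low were compared without a block, as the unpaired test in the series' design text implies, in limma 3.58.1 in R 4.3.3, and p-values adjusted by Benjamini-Hochberg over all probesets. The mouse or pool term was tested by F in the fit with fraction. Named genes are the members, Cd38, the 3 likeliest named genes per member (no predicted genes) and up to 4 of each list. Pairing comes from the labels. Deviations of the 2 arrays of a mouse or pool correlated at 0.345 to 0.675, those of other arrays of opposite fractions at -0.577 to 0.0998. Scripts were tested on simulated arrays. Python 3.11.15, pandas 2.3.3, numpy 2.4.6 and matplotlib 3.10.9 served the rest. The number of arrays limits the precision. The comparison of fractions without a block sets its p against the spread of levels between mice and ignores the pairing. The F test and the fit with a block use the spread left once mouse or pool is taken out. For the fraction, that is the spread of the pair differences across mice and pool. The p-values of the F test hold for these mice and this pool only. Those of the fractions treat the pool as separate from mice 1 to 3, which is not stated.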

Additional observations from a re-analysis of the deposited data

Results flagged for a closer look

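Of 12 groups of 4 values (each gene in each fraction and its 4 pair differences), 1 held a value whose gap to its nearest neighbour took more of the range than the critical value of Dixon's test, and chance marks about 1 group in 20. The Iglc2 difference of mouse 2 was 1.97 on the log2 scale, against 2.27 in each of the other two mice and the pool. That gap is small beside the difference itself.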

How the results depend on the processing

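Median centring for the correlations was chosen after seeing the data. The log2 differences of the 4 genes kept their direction and moved by less than 1 SD under every alternative run, with 1.89 to 2.49 for Cd79a, 2.14 to 2.27 for Iglc2, 1.26 to 1.51 for Ccr7 and -2.67 to -2.19 for Nkg7 when arrays or pairs were left out. The count of called members was 3 without mouse 1 or the pool and at the threshold of the methods' t-test, Cd79a being lost each time, and 4 in the other fits. With mouse or pool as a replicate block 3929 probesets differed between fractions (1626 higher), and with a random replicate block 3840 (1514 higher), against 2479 (873 higher, 1606 lower) without. The methods' t-test gave 351 (78 higher, 273 lower) at its p and 2-fold minimum and 1598 (545 higher, 1053 lower) after Benjamini-Hochberg. Leaving out arrays or pairs gave 540 to 2436 (113 to 953 higher, 427 to 1483 lower), lowest without mouse 1. For mouse or pool, 732 probesets passed, 297 after median centring, 1106 among the brighter probesets and 0 to 865 without a pair. The 0 was without mouse 2 or mouse 3. The adjusted p of Nkg7 in limma was 0.024 among the brighter probesets, 0.0401 with trended robust variances, 0.0536 with quantile normalization, 0.0743 with median centring and 0.0453 to 0.353 without a pair. It was 0.0747 to 0.639 for Cd79a, 0.591 to 0.766 for Iglc2 and 0.133 to 0.582 for Ccr7 without a pair in limma. With the mean of each mouse or pool removed (replicate block), r was 0.69 for Cd79a with Iglc2 and 0.25 for Iglc2 with Ccr7. Quantile normalization gave 0.68 and 0.34 and median centring 0.74 and 0.37, with -0.77 for Iglc2 with Nkg7. Without a pair r ran from -0.34 to 0.91 for Cd79a with Iglc2, -0.83 to 0.85 for Iglc2 with Ccr7, -0.80 to 0.072 for Iglc2 with Nkg7, -0.94 to -0.29 for Ccr7 with Nkg7, 0.69 to 0.94 for Cd79a with Ccr7 and -0.97 to -0.86 for Cd79a with Nkg7. The cause of these shifts was not tested.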
